A study of Sorghum bicolor with 8 samples.

Results

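Callus II of sorghum was compared with the other 2 callus types of the same series, Callus I and Callus III, taken as the mean of their group means. The comparison used the 6 callus libraries of a series of 8, 2 in each callus group. The other 2 libraries came from leaves regenerated from Callus II and serve here only as a further level beside the callus values. All groups came from the wild-type line Hiro-1 of Sorghum bicolor and share the way they were started. Immature embryos 1 to 2 mm long, taken 13 to 15 days after flowering, were put on callus induction medium in the dark at 25 °C for 3 weeks. The callus types were then cut from the explants and kept apart on fresh induction medium for another 20 days. The leaves grew on differentiation medium, lit at 2000 lx for 16 h a day with 8 h of darkness. The labels name the types I, II and III without describing them, and they state of Callus II alone that leaves were raised from it. They speak of 2 biological replicates and do not say whether these came from separate cultures.

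Callus is tissue that plant cells form in culture when they divide without building organs. In cereals the scutellum of the immature embryo, its absorptive cotyledon, is the usual starting tissue, and 1 explant commonly yields callus of several kinds. Compact, nodular callus of cereals can form somatic embryos or shoots, whereas soft or watery callus usually cannot. Which of these kinds the labels' types correspond to is not stated.

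The deposited values were FPKM (sequenced fragments, scaled to the length of the transcript and to the size of the library) for 34129 genes. A gene was tested if 2 or more of the 6 callus libraries reached 1 FPKM, which left 21369. The sums of FPKM ran from 643004 to 737291 per callus library, and from 24497 to 25863 genes were above 0. Read totals are not given. The commonest ratio of values under 0.2 FPKM, at which 12.5% to 16.6% of such pairs lay, placed the depth of the other callus libraries at 0.965 to 1.07 times that of Callus I replicate 1. The 2 Callus II libraries correlated at 0.981 across tested genes (Pearson, log2(FPKM + 1)), those of Callus I at 0.973 and those of Callus III at 0.981. Callus II libraries correlated at 0.714 and 0.721 with Callus III replicate 1, and at 0.76 and 0.768 with Callus III replicate 2, so replicate 2 of Callus III was the nearer to Callus II. Genes are not independent replicates, and these correlations describe the libraries only.

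The identifiers (Sobic numbers of annotation version 3.2) are not paired with gene names or descriptions in the files, and 0 of them were found in the RefSeq gene table of assembly Sorghum_bicolor_NCBIv3. The genome build of the files is not given in the sources used here. Of the 34027 loci on chromosomes, 19834 (58.3%) overlapped a gene of that table by at least 0.8 of both lengths, and 578 (1.7%) did so after all loci had been moved by 100000 bp. The table gives biotypes but no functions, so no role is stated for any gene. The 42 lists of pathway and cell type genes prepared for this tissue are matched on descriptions, so 0 members could be found for them, and the tissue could not be checked against its marker genes.

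The genes that most clearly set Callus II apart were silent or nearly so in the other callus types, or the reverse. Sobic.005G080600.v3.2 (chromosome 5, 10617467 to 10619454, at a protein-coding RefSeq gene) stood at 267.5 and 178 FPKM in the 2 Callus II libraries. The Callus I libraries held 0.157 and 0.213 FPKM of it, the Callus III libraries 0.13 and 1.04, and the Leaf libraries 0.0744 and 0.135. Both Callus II libraries lay far above the 6 others, and only Callus III replicate 2 among those exceeded 1 FPKM. The log2 difference from the mean of the other callus types was 7.35 ± 0.28 (SE; 2 libraries per group), with an adjusted p of 3.27e-05 in limma after Benjamini-Hochberg adjustment.

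Sobic.004G311000.v3.2 (chromosome 4, 64749515 to 64752467, also at a protein-coding RefSeq gene) had 106.5 and 114.4 FPKM in Callus II. The Callus I libraries held 0.263 and 0.341 FPKM, the Callus III libraries 0.151 and 0, and the Leaf libraries 0.553 and 0.575. The 2 Callus II values differed little from each other and no other library reached 1 FPKM. On the log2 scale it differed from the mean of the others by 6.56 ± 0.15 (limma adjusted p = 1.38e-05). It was tested only because both Callus II libraries reached 1 FPKM. Without Callus II, Sobic.005G080600.v3.2 would not have been tested either, since Callus III replicate 2 alone among the other callus libraries reached 1 FPKM.

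In the other direction, Sobic.001G239601.v3.2 (chromosome 1, 24621215 to 24622883, with no RefSeq gene matched at its position) had 0.284 and 0.352 FPKM in Callus II. The Callus I libraries held 154.3 and 213.1 FPKM and the Callus III libraries 234.4 and 139.5, so those groups overlapped each other and lay far above Callus II. Leaf, at 0.181 and 0.141 FPKM, was as low as Callus II. Its difference from their mean was -7.11 ± 0.24 on the log2 scale (limma adjusted p = 2.53e-05).

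Sobic.001G535600.v3.2 (chromosome 1, 79876959 to 79877844, 886 bp, with no RefSeq gene matched) was listed at 0 in Callus II replicate 1 and at 0.531 FPKM in replicate 2. The Callus I libraries held 223.2 and 63.96 FPKM, the Callus III libraries 113.1 and 104.2, and the Leaf libraries 367.4 and 317.4. Here the leaves that had grown from Callus II held the highest values and Callus II the lowest. The difference was -6.54 ± 0.47 on the log2 scale (limma adjusted p = 0.000141). These 4 genes head the order by the smaller of the log2 differences from Callus I and from Callus III. Only genes called in the same fits entered that order. The p-values of these genes and of those that follow therefore describe the choice and are no independent support.

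**Figure D1:**
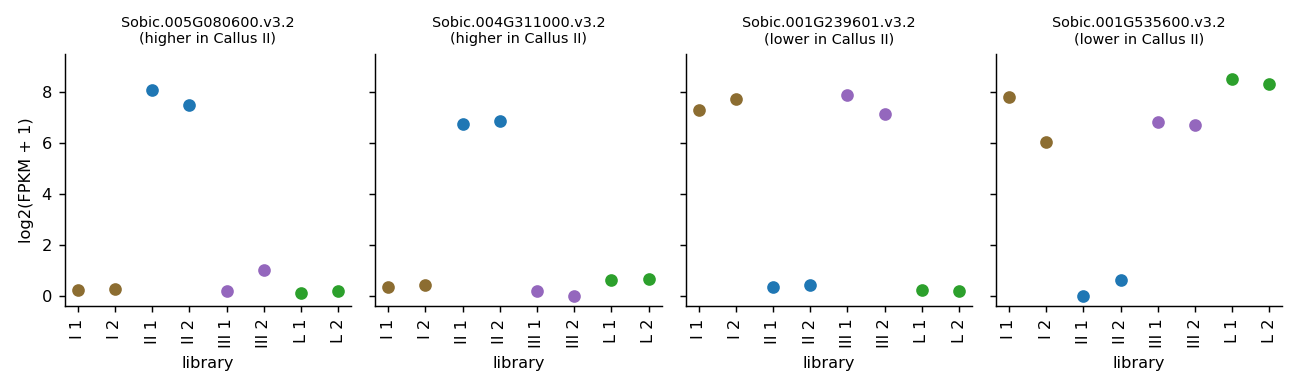
Levels of the 4 named genes as log2(FPKM + 1), vertical axis, in each of the 8 libraries, horizontal axis (I, II and III for the callus types, L for Leaf, with the replicate number), 1 point per library. The 2 left genes are high in both Callus II libraries alone, and the 2 right genes are low in Callus II and high in Callus I and III, with Leaf low for the first of them and highest for the second.

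The genes that follow them in the same order were nearly as extreme. The next 10 higher genes lay on 8 chromosomes and had 28.6 to 353.8 FPKM in the Callus II libraries, against 0 to 16.71 in the 4 other callus libraries. Their log2 differences ran from 5.20 to 6.58, and their highest limma adjusted p was 0.000253. In Leaf 9 of these 10 had a mean under 1 FPKM, and no Leaf library exceeded 2.16. The next 10 lower genes had 0 to 3.41 FPKM in Callus II and 14.78 to 2355 in the others, with log2 differences from -7.14 to -4.89. In Leaf 6 of these 10 had a mean of at least 10 FPKM and 0 had one under 1. The rule took lower genes that were expressed in both other callus types. For higher genes it set no limit on those types, but the order by difference favours low levels there. The choice therefore bears on the Leaf levels of both sets, and how far it does so was not tested.

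Fixed limits on the level were also applied. They too choose genes by the level outside Callus II, low for one direction and high for the other, so the Leaf values of the 2 sets are a description and not a comparison between them. In 36 genes both Callus II libraries reached at least 10 FPKM while all 4 other callus libraries stayed under 1. All 36 were thus tested only through their Callus II values. Their Callus II values ran from 10.03 to 114.4 FPKM, with medians of 18.79 and 20.15 in the 2 libraries. The median was 0.0514 and 0.0262 FPKM for the Callus I libraries, 0.157 and 0.566 for the Callus III pair, and 0.128 and 0.108 for the Leaf pair. Of the 36 genes, 31 were under 1 FPKM in both Leaf libraries too, 5 lay in between, and 0 reached 10 FPKM in both. Over all tested genes the Leaf medians were 7.52 and 7.51 FPKM, and the share under 1 FPKM in both is not given here. The 36 were spread over all 10 chromosomes, and 24 had a RefSeq gene matched at their position.

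The limits apply to each library, so leaving a library out could only keep or raise the count of 36. It was 76 without Callus III replicate 2, and 57 and 61 without Callus II replicate 1 or 2. Without Callus I replicate 1 or 2 it was 41 and 38, and without Callus III replicate 1 it was 38. With median-ratio scaling, which divides each library by its median ratio to the geometric mean of the 6, 28 of the 36 met both limits.

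The reverse, under 1 FPKM in both Callus II libraries and at least 10 in all 4 others, was found for 32 genes. The median was 30.21 and 23.56 FPKM for the Callus I libraries, 37.02 and 35.78 for the Callus III pair, and 0.18 and 0.273 for the Callus II pair. In Leaf the medians were 12.72 and 14.39 FPKM, and only 3 of the 32 were under 1 FPKM in both Leaf libraries. With scaling 41 genes met these limits, including all 32.

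For scale, the same limits gave 199 genes high in Callus I alone among callus types, of which 124 (62.3%) were under 1 FPKM in both Leaf libraries and 11 (5.53%) reached 10 in both. They gave 209 genes high in Callus III alone, with 131 (62.7%) and 32 (15.3%). For the 36 genes of Callus II the shares were 86.1% and 0%. With 5 FPKM in place of 10, for callus and Leaf alike, they were 74.3% and 4.95% for Callus II. They were then 65.7% and 9.02% for Callus I, and 55.7% and 24.2% for Callus III. At the limit of 10 FPKM, genes low in 1 callus type alone numbered 87 for Callus I and 9 for Callus III. Of those, 29 (33.3%) and 0 reached 10 FPKM in both Leaf libraries, against 62.5% of the 32 low in Callus II. At the limit of 5 FPKM the share was 57.9% of 197 genes for Callus I and 62% of 79 for Callus II. For Callus III it was 15.4% of 39. The gap between Callus I and Callus II thus depended on the limit. The differences between these shares were not tested, and the Leaf libraries differ from all callus in tissue, light and medium, which cannot be told apart here.

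**Figure D2:**
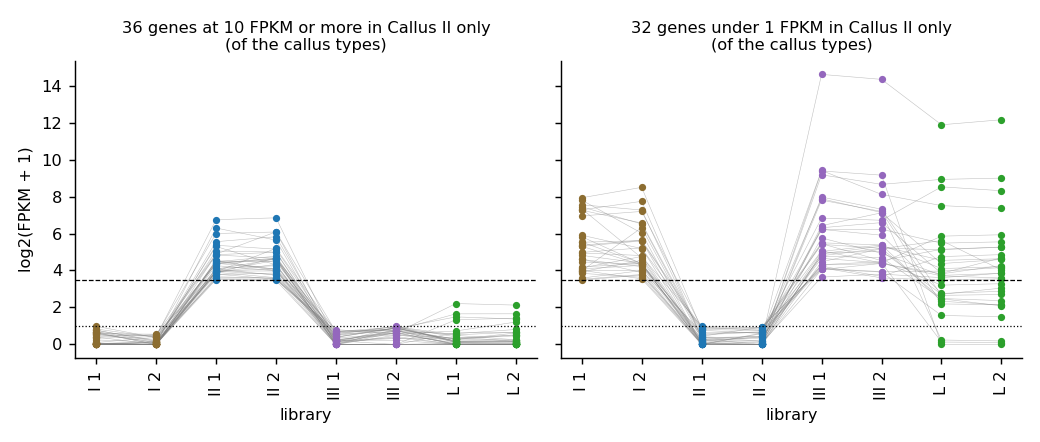
Levels, as log2(FPKM + 1) on the vertical axis, of the 36 genes high (left) and the 32 genes low (right) in Callus II alone among callus types, by library on the horizontal axis; each line is a gene, the dashed line marks 10 FPKM and the dotted line 1 FPKM. The left genes stay near the bottom in Leaf, where 31 of 36 are under 1 FPKM, while the right genes are spread over the whole range in Leaf, with medians of 12.72 and 14.39 FPKM.

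Across all tested genes, the contrast was called for a majority, and its direction depended on how the libraries were scaled. With the deposited values limma called 8879 of 21369 genes higher in Callus II (41.6%) and 4795 lower (22.4%) at an adjusted p under 0.05. After median-ratio scaling 5434 were higher (25.4%) and 6667 lower (31.2%). Higher genes were thus the larger group before scaling and the smaller one after it. In all, 13674 genes (64%) were called with the deposited values. The median log2 difference of all tested genes moved from 0.30 to -0.05. The scaling factors were 1.21 in both Callus II libraries, 0.967 and 0.949 in Callus I, and 0.817 and 0.941 in Callus III. Setting the FPKM sums equal, with the 100 highest genes left aside, lay in between, with 7226 higher, 5413 lower and a median of 0.15. No gene changed from higher to lower between the deposited and the median-ratio values. The reverse could not occur, since the median-ratio factors lower Callus II against the other types in every gene. In both, 5434 genes were called higher and 4784 lower, while 3445 higher calls were lost and 1883 lower calls were added.

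**Figure D3:**
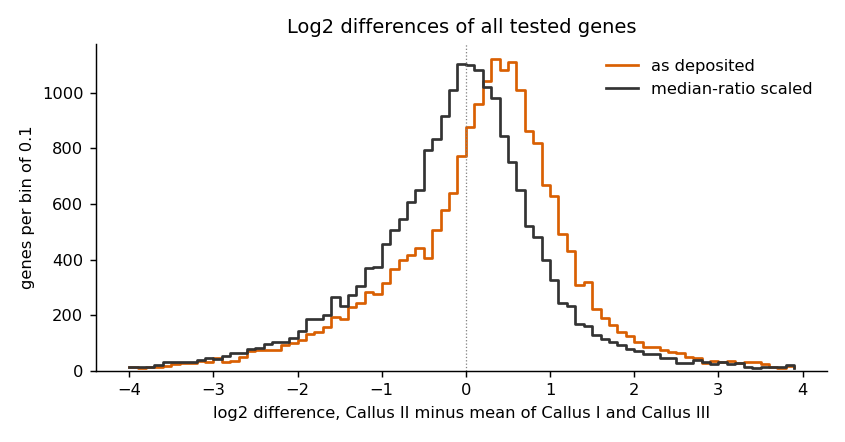
Number of genes (vertical axis, bins of 0.1) by log2 difference of Callus II minus the mean of Callus I and Callus III (horizontal axis, drawn from -4 to 4), with the deposited FPKM and after median-ratio scaling. Scaling moves the whole distribution to the left, its median going from 0.30 to -0.05.

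A call against a mean of 2 groups does not say that Callus II stands outside both. Against Callus I alone 39.2% of tested genes were called higher and 25.3% lower, and against Callus III alone 40.4% and 14.2%. Of the 8879 higher genes, 5102 (57.5%) were also called higher against Callus I and against Callus III, with both Callus II libraries above all 4 others. Such genes, 23.9% of those tested, are called set apart below. Another 2116 higher genes (23.8%) were called against Callus I only, and 1441 (16.2%) against Callus III only. Of the 4795 lower genes, 1318 (27.5%, and 6.17% of those tested) were set apart, while 2146 (44.8%) were called against Callus I only and 975 (20.3%) against Callus III only. The remaining lower genes included 338 in which Callus II was called below one type and above the other.

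Set apart in both the deposited and the scaled values were 2490 higher genes (11.7% of those tested) and 1310 lower genes (6.13%). Median-ratio scaling alone gave 2490 (11.7%) and 2151 (10.1%). For the 2490 higher genes the median was 16.96 and 16.66 FPKM for the Callus II libraries, 2.86 and 2.43 for the Callus I pair, 3.26 and 4.83 for the Callus III pair, and 3.79 and 3.89 for the Leaf pair. Their median log2 difference was 1.59 with the deposited values and 1.26 after scaling, beside 0.30 and -0.05 for all tested genes. The 2 Callus II libraries differed from each other by a median of 0.15 on that scale, and those of Callus III by 0.31. For the 1310 lower genes the median was 1.53 and 1.59 FPKM for the Callus II libraries, 14.46 and 13.67 for the Callus I pair, 11.08 and 10.65 for the Callus III pair, and 7.82 and 8.17 for the Leaf pair. Their median log2 difference was -1.72, and -1.98 after scaling.

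These counts depended on which library was left out. Without Callus I replicate 1 or 2 there were 2581 and 2485 higher genes and 1280 and 1375 lower genes, close to the counts with all 6. Leaving out Callus II replicate 1 or 2 gave 1307 and 1304 higher genes and 760 and 799 lower genes. Without Callus III replicate 1 or 2 the counts were 1328 and 1833 higher and 876 and 981 lower. In every one of the 6 fits that left out 1 library, and in the same 6 after scaling, 971 of the 2490 (39%) and 567 of the 1310 (43.3%) were still set apart. The filter on low values bears on both directions. Of the genes tested, 644 had 1 FPKM or more in both libraries of Callus II alone among callus types, and of these 632 were called higher with the deposited values and 467 are among the 2490. The same held of 1204 genes for Callus I alone and 677 for Callus III alone, of which 1036 and 588 were called lower, and 34 and 15 are among the 1310.

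**Figure D4:**
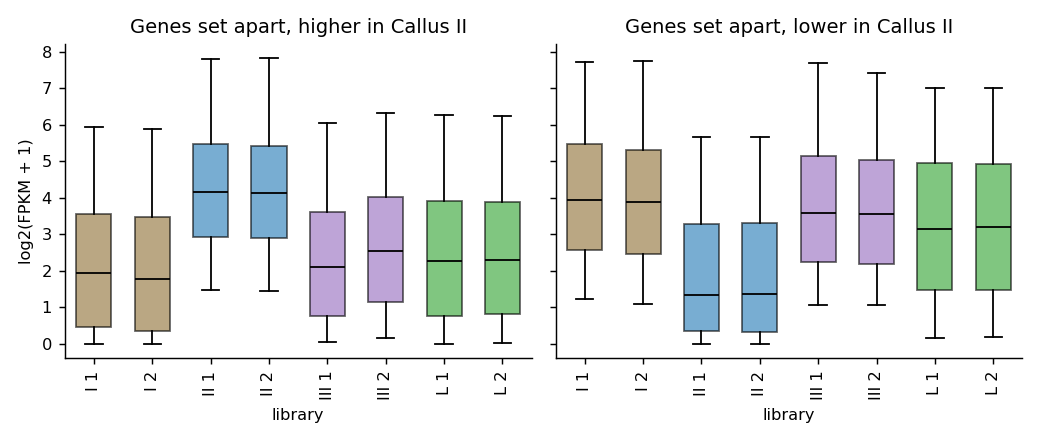
Levels as log2(FPKM + 1), vertical axis, of the 2490 higher and 1310 lower genes that were set apart in both scalings, by library, horizontal axis. Boxes span the interquartile range with the median as a line, and whiskers run from the 5th to the 95th percentile. For the higher genes the Leaf boxes lie near those of Callus I and III, with Leaf medians of 3.79 and 3.89 FPKM. For the lower genes the quartiles of Leaf lie between those of Callus II and those of Callus I and III, with Leaf medians of 7.82 and 8.17 FPKM.

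The excess of higher genes depended on the size of the difference and on the scaling. With at least a 4-fold difference on the FPKM + 1 scale from Callus I and from Callus III, 523 genes were set apart higher and 235 lower in the deposited values, and 348 and 310 after scaling. At 8-fold these were 169 and 77, and 106 and 103 after scaling. At 16-fold they were 41 and 22, and 24 and 30. The excess of higher genes was thus present with the deposited FPKM at each of these sizes, and after scaling it was small at 4-fold and 8-fold and turned at 16-fold.

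**Figure D5:**
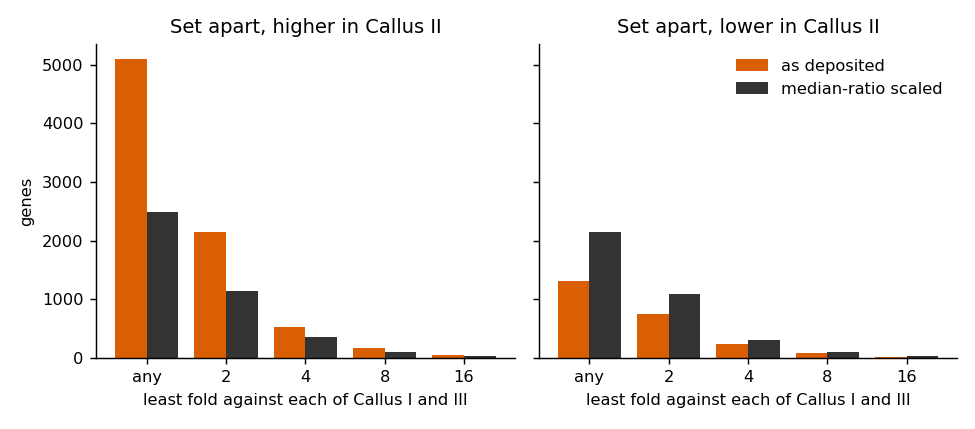
Number of genes set apart (vertical axis) by the least fold difference on the FPKM + 1 scale from both Callus I and Callus III (horizontal axis, where "any" sets no limit), for genes higher (left) and lower (right) in Callus II. Bars give counts for the deposited and the median-ratio scaled values; at 2-fold the higher genes number 2148 and 1148 and the lower genes 756 and 1086.

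By the size of the log2 difference, Callus II was nearer to Callus III than to Callus I for most tested genes, 12730 against 8621, and 13605 against 7746 after scaling. The sets leaned the same way, with 1630 against 842 of the higher genes (1767 against 705 after scaling) and 790 against 520 of the lower genes (730 against 580). No difference between the sets and all tested genes was tested. The 2 Callus III libraries were not alike for the higher genes. Replicate 2 was above replicate 1 in 2231 of the 2490 (89.6%), and in 15487 of all 21369 tested genes (72.5%). The part of this difference between the Callus III libraries in the results was not tested.

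As a share of all FPKM, the 2490 higher genes held 18.7% and 20.8% in the Callus II libraries, 5.13% in both Callus I libraries, 5.21% and 6.70% for the Callus III pair, and 7.72% and 7.52% for the Leaf pair. The 1310 lower genes held 1.98% and 2.20% of the Callus II sums, 9.95% and 10.4% of those of Callus I, 13.2% and 11.1% of those of Callus III, and 8.07% and 8.04% of those of Leaf. FPKM gives short loci more weight, so these are not shares of reads. In bulk tissue, a change in the share of cells of one kind and a change in the RNA of each cell cannot be told apart.

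In Leaf, 2215 of the 2490 higher genes (89%) had both libraries below both Callus II libraries, and 199 (7.99%) had both above. Of the 1310 lower genes, 972 (74.2%) had both Leaf libraries above Callus II and 233 (17.8%) below. Over all tested genes Leaf was above Callus II in 36.2% and below in 52.6%. The genes were chosen for their Callus II values, so Leaf was likely to lie on the other side, and these shares show only where the leaf values fell. Set against the other callus types instead, the Leaf mean of the higher genes was below both for 830 genes, within their range for 707 and above both for 953, which is 33.3%, 28.4% and 38.3%. Over all tested genes these shares were 33.2%, 31.1% and 35.8%, so the higher genes lay near the background. For the lower genes it was below both for 701 (53.5%), within for 269 (20.5%) and above both for 340 (26%). The lower genes were chosen with Callus I and III high, and the difference from the background was not tested. All of these Leaf counts used the deposited values and were not repeated after scaling. The tested genes were chosen in callus, and held 89.4% and 88.9% of the Leaf sums against 99.8% of both Callus II sums.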

How the data were processed

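The authors deposited 1 FPKM table per library, as the file headers name the unit. Per the submitters' processing notes, the tools were Cuffdiff, TopHat2 2.0 and Trimmomatic, whose roles are not said. Build, settings, filters and strand are not given in the sources consulted, so overlapping loci (12.5% of genes tested) may share reads. The files were joined by identifier, and 1 was added to each locus start, which counts from 0. Values were taken as log2(FPKM + 1), which understates the change of low genes, and modelled with limma 3.58.1 under R 4.3.3, with a mean for each callus type over 6 libraries, 3 residual and 3.42 prior degrees of freedom with a variance trend, 2-sided, with Benjamini-Hochberg adjustment over all 21369 genes.

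The smallest 1-sided p of a permutation of 2 libraries against 4 is 0.0667, so calls rest on variance shared across genes, and p-values measure the spread between libraries that may be technical. The fit was run on simulated data with known answers, in which 200 of 21369 genes were changed. Of changes of 1 on the log2 scale 31% were called, and of changes of 2 it was 76%. Among 109 calls 2 were false. Far fewer genes changed there than were called in the data, so these rates may not carry over. No 2 libraries held identical values.

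The members, gene lists and tests were chosen with earlier results of these data known. Genes were named by a rule: set apart in both scalings, at least 10 FPKM in Callus II (higher) or in each other group (lower), a locus of at least 500 bp overlapping no other, ordered by the smaller log2 difference, the first 2 in each direction of the 1462 higher and 502 lower genes that met these conditions. The limits of 10 and 1 FPKM were chosen after the values were seen. Alternatives covered scaling, pseudocount, filters, the variance trend, all 8 libraries, short or overlapping loci, a replicate block and leaving out each library.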

Additional observations from a re-analysis of the deposited data

Results flagged for a closer look

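The Leaf libraries lie outside the comparison and held a signal where Callus II had next to none. Of the 32 genes that stayed under 1 FPKM in Callus II while all 4 other callus libraries reached 10 FPKM, 20 were at 10 FPKM or more in both Leaf libraries, the leaves having been raised from Callus II. These genes were chosen as expressed in all 4 other callus libraries, which makes expression in Leaf more likely. Over all tested genes the Leaf medians were 7.52 and 7.51 FPKM. The share of tested genes at 10 FPKM or more in both Leaf libraries is not given here, so no excess over it is claimed. Of the rest, 9 lay in between and 3 were under 1 FPKM in both. At a limit of 0.5 FPKM for Callus II, 13 of 21 genes were at 10 FPKM or more in both Leaf libraries. Leaf differs from callus in tissue, light and medium, which cannot be told apart.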

How the results depend on the processing

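The 4 named genes kept their direction in all 15 alternatives. They were chosen for the largest differences called in both scalings, so this was largely built into the choice. With a pseudocount of 0.1 FPKM their log2 differences were 9.16, 8.78, -8.77 and -8.83. Median-ratio scaling moved the calls to 5434 higher and 6667 lower, and the genes set apart to 2490 higher and 2151 lower. With a mean of at least 5 FPKM, where fewer genes were tested, 2772 were called lower, 1604 were set apart higher in both scalings, and the scaled values gave 3589 higher and 4316 lower. Leaving out 1 library gave 5641 to 8590 called higher and 3476 to 4813 lower, and 3095 to 5495 and 4333 to 6721 after scaling. Genes set apart ranged from 2708 to 4779 (higher) and 790 to 1398 (lower), and in both scalings from 1304 to 2581 and 760 to 1375. Genes high in Callus II alone numbered 38 to 76 and genes low there alone 35 to 42. With all 6 libraries and a limit of 0.5 FPKM in place of 1 the counts were 10 and 21. With 5 FPKM in place of 10 they were 101 and 79. These limits were added after the data were seen, as were the scaled alternatives. The median log2 difference of all tested genes was 0.08 with no filter. Where 1 library of a group was left out, the other is assumed to vary like the rest.

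Replicate numbers did not mark shared cultures in the labels, and the differences between replicates 1 and 2 correlated at 0.02, -0.045 and -0.016 between groups, so the numbers were not taken as pairs. With the replicate block, 8410 genes were called higher and 4695 lower, and 4578 and 1227 were set apart. Without read totals, the floor of detection is unknown.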

Other observations

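Callus II stood between the other callus types in a further group of genes. In 627 genes (2.93% of those tested) it was called below Callus I and above Callus III in both scalings, with no overlap between the groups. The median was 37.63 and 35.27 FPKM for the Callus I libraries, 10.19 and 11.26 for the Callus II pair, 2.35 and 3.31 for the Callus III pair, and 2.91 for each Leaf library. The opposite order was found in 325 genes (1.52%), with medians of 0.485 and 0.393 FPKM for the Callus I pair, 6.18 and 5.47 for the Callus II pair, 21 and 23.2 for the Callus III pair, and 9.29 and 9.07 for the Leaf pair. With the deposited values alone there were 1121 and 451 such genes, and after scaling 837 and 585.

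Genes set apart were found on every chromosome, and some lay side by side. The share of tested genes set apart higher in both scalings ran from 9.31% on chromosome 5 to 13% on chromosome 4, and the share lower from 5.31% on chromosome 7 to 7.27% on chromosome 9. By locus length the higher share was 9.45% under 1000 bp, 14.5% between 1000 and 2000 bp, 12.8% from there to 4000 bp, 10.7% up to 8000 bp and 8.24% above. The lower share in the same order was 7.44%, 7.94%, 6.89%, 4.96% and 3.70%. These shares were not tested. Of the 2488 higher genes on chromosomes, 724 (29.1%) were next to another among tested genes, and of the 1306 lower genes 251 (19.2%). The sets made up 11.7% and 6.12% of tested genes on chromosomes, and since a gene has a neighbour on either side, the share next to another would exceed these values under any placement without order. Whether the shares exceed what such a placement gives was not tested.

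The stretches below were chosen after their values were seen. The 5 neighbours on chromosome 1 from 71991149 to 72029833 formed the longest run, but 3 of the 5 loci overlap another. Their medians were 9.56 and 9.04 FPKM in Callus II and 1.45 to 2.50 in the other callus libraries. On chromosome 8, 4 neighbours from 3283276 to 3324037 (40.8 kb), none overlapping, had medians of 16.83 and 17.46 FPKM for the Callus II pair, 0.823 and 0.497 for the Callus I pair, 0.764 and 1.08 for the Callus III pair, and 0.27 and 0.403 for the Leaf pair. Their log2 differences ran from 1.33 to 3.49. A stretch of 4 neighbours on chromosome 3 from 67572000 to 67592857 (20.9 kb) was lower in Callus II, with medians of 0.862 and 0.346 FPKM in Callus II. The medians were 7.54 and 10.41 for the Callus I pair, 2.78 and 2.59 for the Callus III pair, and 9.18 and 10.75 for the Leaf pair.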
